A study of Homo sapiens with 6 samples.

Results

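A set of 7 genes of muscle, extracellular matrix, skin or signalling was chosen as not typical of blood cells, although CYFIP2 is also known from lymphoid cells. It was examined in MOLM-13 cells, an established human acute myeloid leukaemia line, after 24 h with 50 nM DEG-35 (3 libraries) or with its solvent DMSO (3 libraries). Both groups are WT by genotype, and in the study's title DEG-35 degrades 2 proteins, the transcription factor IKZF2 and the kinase CK1A. The genes are PTCHD4, COL5A1, MYH13, GGT5, ACTA2, TGM5 and CYFIP2. They were chosen by their large log2 fold changes among the 6831 genes of the authors' deposited table and were looked up there by name, where all 7 were found. The values below therefore describe a rise that selected them and are no test of it.

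Most of these genes are known for work in other tissues. ACTA2 encodes the alpha actin of the smooth muscle contractile apparatus, which is also the classical marker of activated fibroblasts. MYH13 encodes the myosin heavy chain of extraocular muscle. COL5A1 encodes a chain of type V collagen, which starts the assembly of collagen fibrils. TGM5 is a transglutaminase that cross-links proteins in the outer epidermis. GGT5 is an extracellular gamma-glutamyl hydrolase that acts on glutathione conjugates such as leukotriene C4. CYFIP2, known from neurons and lymphoid cells, is a subunit of the WAVE complex, which passes RAC signals to the Arp2/3 actin nucleator. PTCHD4 is a membrane protein related to the hedgehog receptor Patched. Both CYFIP2 and PTCHD4 are known from earlier work as genes that p53 can induce.

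The table holds fold changes and p-values alone: the level of each gene in each sample, the depth of the libraries and the levels of blood or other cell markers were not analysed here, and how foreign each gene is to untreated MOLM-13 cells could not be checked. The errors below are standard errors (SE) implied by each deposited fold change and its p-value, and intervals are 95% intervals from them. Neither the file header nor the labels name the numerator of the fold changes. DEG-35 was taken as the numerator and DMSO as the denominator, and every direction given here would turn round under the other order. Nothing in the labels ties the 3 libraries of a group to separate cultures, and the p-values then measure only the spread between these libraries, which may be technical. In bulk RNA, a few cells with much of a transcript and many cells with little of it cannot be told apart.

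Promoter sequences are shown first, since start regions are a feature that the choice of the genes did not use. The RefSeq promoter table of GRCh38.p14 was matched by symbol and gave 11 windows for 6 genes, ACTA2, COL5A1, CYFIP2, MYH13, PTCHD4 and TGM5, of which the 250 bases before each annotated start were searched. Windows of 1 gene can overlap, as those of COL5A1 do. Motifs of 3 kinds were searched on both strands with no mismatch: the p53 half-site, the CArG box that binds SRF in muscle genes, and TATAAA. No 2 of the matches found overlapped each other. The 3 windows that hold a match are printed 5′ to 3′ on the gene's own strand, with the matches in capitals. They are PTCHD4 at chr6:48111198-48111447 (minus strand), the outer ACTA2 start at chr10:88991338-88991587 (minus strand) and MYH13 at chr17:10373007-10373256 (minus strand), in GRCh38.p14.
PTCHD4: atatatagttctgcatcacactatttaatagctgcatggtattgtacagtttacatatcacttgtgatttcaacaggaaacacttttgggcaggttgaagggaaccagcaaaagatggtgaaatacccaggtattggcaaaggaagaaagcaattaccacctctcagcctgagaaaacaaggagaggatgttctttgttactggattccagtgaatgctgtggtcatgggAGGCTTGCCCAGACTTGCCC
ACTA2: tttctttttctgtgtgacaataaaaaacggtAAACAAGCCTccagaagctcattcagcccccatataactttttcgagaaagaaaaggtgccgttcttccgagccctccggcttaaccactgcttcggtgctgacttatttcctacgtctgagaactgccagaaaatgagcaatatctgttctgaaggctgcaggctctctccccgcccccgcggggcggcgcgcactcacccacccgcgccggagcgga
MYH13: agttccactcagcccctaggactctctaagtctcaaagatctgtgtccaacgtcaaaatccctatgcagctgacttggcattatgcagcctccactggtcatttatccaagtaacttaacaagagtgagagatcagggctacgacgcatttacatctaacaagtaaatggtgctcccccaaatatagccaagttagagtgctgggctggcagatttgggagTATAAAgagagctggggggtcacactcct

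The outermost PTCHD4 start carried 2 p53 half-sites side by side. Their first bases lie 20 and 10 bases before the annotated start, with no base between them. Of the 35116 windows of the whole table, 6 (0.0171%) hold such an uninterrupted pair, a search added after the sequence had been seen, and 9 (0.0256%) hold a pair with at most 13 bases between. The 6 windows belong to 6 genes, 2 of which were among the listed genes, beside 45.3% listed of all genes tested. The unlisted ones may not have been tested at all, so these shares are not directly comparable. The 2 listed genes are PTCHD4, itself chosen for its rise, and the long noncoding RNA PURPL. PURPL is named LINC01021 in the authors' deposited table, where it stood at 3.22 ± 0.158 on the log2 scale. Whether such a pair goes with a rise was not tested. The other PTCHD4 windows have no such match, and which start the cells used is unknown.

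Single matches were found in a few windows. The outer ACTA2 window holds 1 half-site, starting 219 bases before the start, so that 2 of the 11 windows (18.2%) hold a half-site, against 5.57% of all windows. TATAAA was found in 1 of the 11 windows (9.09%), that of MYH13, 29 bases before the start, against 10.7% of all windows. The CArG box was found in none of the 11, against 1.16% of all windows. GC content ran from 42.8% in the outermost PTCHD4 window to 76.4% in 1 of the CYFIP2 windows, around a median of 58.0% over all windows. These matches are descriptions of letters and say nothing of what binds there.

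All 7 genes were higher with DEG-35, which is how they were chosen. Over the table, 3218 of the 15064 genes that the authors' adjusted p-values imply were tested passed as higher (21.4%), 3613 as lower (24.0%) and 6831 in either direction (45.3%). Since the scaling is unknown, the log2 fold changes of the 6831 listed genes were also shifted down or up by 0.3. By sign alone, 2501 would then lie above 0 and 4330 below, or 4151 above and 2680 below. No p-value was computed anew, and unlisted genes could not enter. All 7 members stay higher under either shift, whereas any value within 0.3 of 0 below changes sign under one of them. The members' log2 fold changes in the authors' deposited table ran from 2.27 to 6.70 with a median of 2.86, against a median of 0.50 over all genes that were higher. They fell into 2 sets: PTCHD4, COL5A1 and MYH13 lie above 4, and the other 4 genes lie below 3. Between these sets, the intervals of MYH13 and GGT5, which differ by 1.82, do not overlap, whereas the intervals of every other pair of neighbours in the order overlap.

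**Figure D1:**
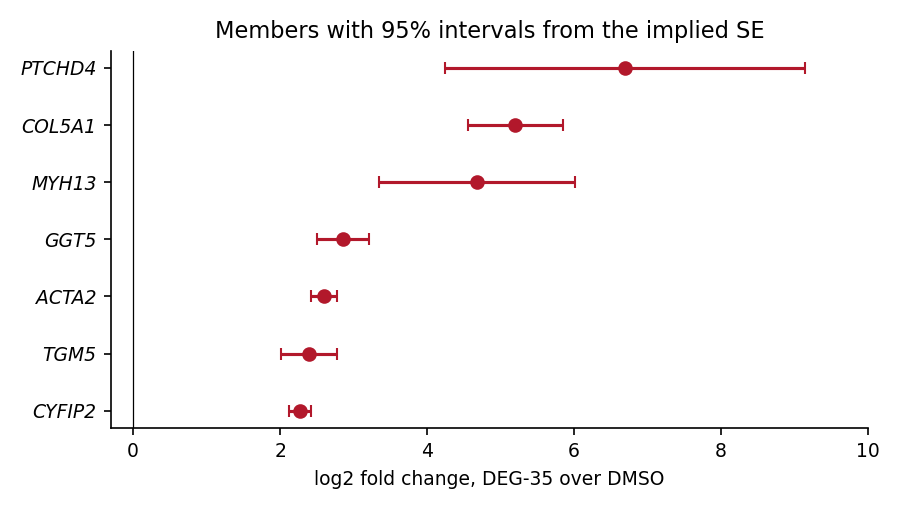
Log2 fold change of each gene, DEG-35 over DMSO (x axis), from the highest to the lowest; points are the values of the authors' deposited table and bars the 95% intervals from the implied SE. PTCHD4, COL5A1 and MYH13 stand at 6.70, 5.20 and 4.68, apart from the 4 genes between 2.27 and 2.86.

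The patched-related gene PTCHD4 had the largest rise of the whole table and 1 of its widest errors. It stood at 6.70 ± 1.25 in the authors' deposited table (adjusted p = 4.88e-07), a 104-fold rise with an interval of 19.0-fold to 567-fold. Its implied SE ranked 13 from the largest, and its p-value ranked 2521 among the 6831 genes.

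COL5A1 rose less than PTCHD4 and had a smaller error, and their intervals overlap. The authors' deposited table gave it 5.20 ± 0.329 (adjusted p = 1.38e-54), a 36.8-fold rise with an interval of 23.6-fold to 57.6-fold. The 3 listed genes with a p-value of 0 have no implied SE and no interval. When the other listed genes are ordered by the lower bound of the interval, COL5A1 comes first and PTCHD4 second. MYH13, the extraocular myosin, has rank 3, at 4.68 ± 0.685 in the authors' deposited table (adjusted p = 7.50e-11), a 25.6-fold rise with an interval of 10.1-fold to 65.0-fold. Among the genes with an interval, only 1 further gene, TP53INP1, had a lower bound above 3 on the log2 scale.

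The remaining 4 genes rose less and were determined closely. GGT5, the leukotriene-processing enzyme, stood at 2.86 ± 0.181 in the authors' deposited table (7.25-fold, interval 5.66 to 9.27). ACTA2 stood at 2.60 ± 0.0901 there (authors' deposited table), which is 6.06-fold with an interval of 5.37 to 6.85. TGM5, the epidermal cross-linking enzyme, stood at 2.39 ± 0.194 in the authors' deposited table (5.23-fold, interval 4.02 to 6.81). CYFIP2, the actin regulator, had the smallest rise and the smallest error of the 7, 2.27 ± 0.0766 in the authors' deposited table (4.84-fold, interval 4.36 to 5.37). By p-value CYFIP2 ranked 51 and ACTA2 61 of the 6831 genes, ahead of every other member.

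Of the 81 genes that rose at least as much as CYFIP2, 8 had an implied SE of at most 0.2, and GGT5, ACTA2, TGM5 and CYFIP2 were 4 of these. The rest were TP53INP1, LINC01021, HIST1H2BK at 2.85 ± 0.112 and ACTA2-AS1 at 2.62 ± 0.116 in the authors' deposited table. The 3 listed genes with a p-value of 0 have no implied SE and could enter neither the 8 genes nor the medians that follow. The median implied SE was 0.736 over the 81 genes, 0.194 over the 7 members and 0.0891 over the whole table. The genes nearest to each member in fold change, which are the closest in the only comparison available, had implied SEs from 0.540 to 1.54. Among them the muscle gene MYBPHL followed PTCHD4 at 5.50 ± 1.49, the keratin gene KRT17 lay just above GGT5 at 2.86 ± 0.608, and the hair keratin-associated gene KRTAP5-10 just below ACTA2 at 2.60 ± 0.736 in the authors' deposited table. The others were LOC101448202, LOC253573, TLX2, SULF2, GDPD4, CDHR4, CHRNA6, HIST1H2BJ and BTBD19.

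**Figure D2:**
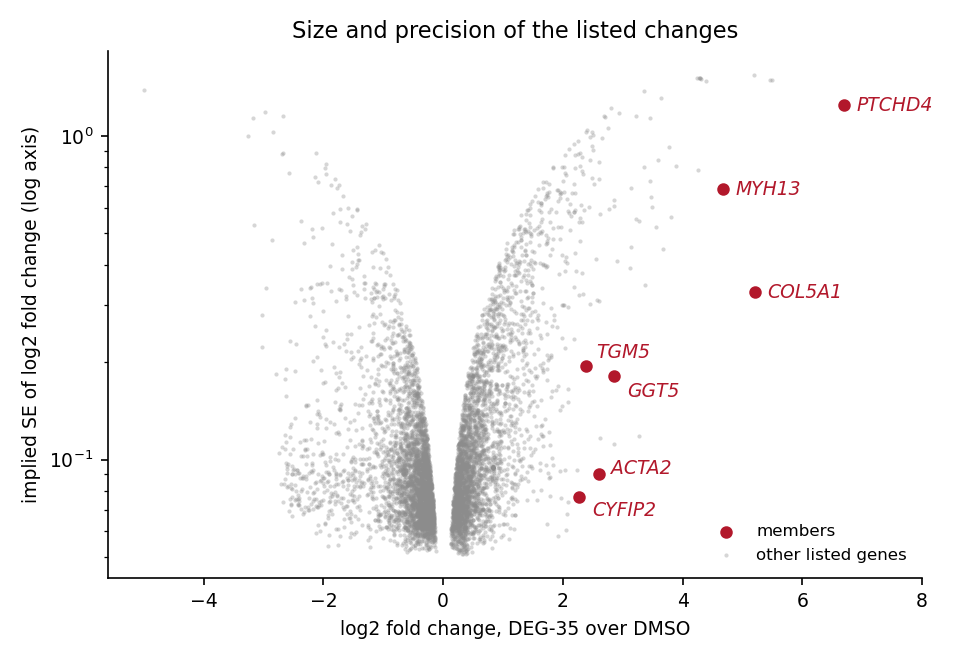
Log2 fold change, DEG-35 over DMSO (x axis), against its implied SE (y axis, log scale) for the listed genes with a p-value above 0; each grey point is 1 gene and red points are the 7 genes described. CYFIP2 and ACTA2, with SEs of 0.0766 and 0.0901, sit low at the right edge of the grey cloud, and PTCHD4, at 6.70, lies farthest to the right.

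The following gene lists were written around the family, complex or tissue of each gene, and their counts leave the 7 genes themselves out unless stated. Genes in the authors' deposited table are called listed; a gene outside it may have missed the threshold or may not have been measured, and such genes are counted in the totals. The counts are set beside the 21.4% higher and 24.0% lower of all genes tested and carry no test of their own.

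Most smooth muscle genes were not listed beside ACTA2. Of the other 11 actin genes, ACTG1, which encodes the cytoplasmic gamma actin, was listed and stood at 0.56 ± 0.0692 in the authors' deposited table (adjusted p = 7.20e-15). Of the other 21 smooth muscle contractile genes, 4 were higher and 3 lower, with a median of 0.47. Tropomyosin TPM2 rose by 0.98 ± 0.139 and the actin-binding SYNPO2 by 0.47 ± 0.0886, while the LIM-domain gene CSRP1 fell by 0.55 ± 0.0683 on the log2 scale in the authors' deposited table. The calponin-related marker TAGLN stood at 0.55 ± 0.192 and the potassium channel subunit KCNMB1 at 2.03 ± 0.670, both higher, and SMTN at -0.61 ± 0.193 and TPM1 at -0.36 ± 0.132, both lower, in the authors' deposited table. The other 14 genes, among them MYH11, CNN1 and DES, were not listed.

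Besides MYH13, 1 of the other 9 sarcomeric myosin heavy chain genes was higher, against 21.4% of all genes tested. It was the embryonic myosin gene MYH3, at 0.88 ± 0.143 in the authors' deposited table (adjusted p = 6.78e-09). MYH1, MYH2, MYH4 and MYH8, which encode skeletal myosins of the same gene cluster, were not listed, and of 5 non-sarcomeric or smooth muscle myosin genes MYH9 alone was, at 0.32 ± 0.0810 in the authors' deposited table. Of the other 36 striated muscle genes 3 were higher and 1 lower. The giant sarcomere protein gene TTN rose by 0.88 ± 0.0695 and the Z-disc gene MYOZ1 by 2.34 ± 0.324, while the tropomyosin gene TPM3 fell by 0.23 ± 0.0529 in the authors' deposited table. The myogenic regulators MYOD1 and MYOG and the muscle genes ACTA1 and CKM were not listed.

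Of the other 10 fibril-forming collagen genes 2 were higher and 0 lower, a share of higher genes near that of all genes tested. COL24A1 rose by 2.27 ± 0.322 and COL5A2, which encodes the partner chain of COL5A1 in type V collagen, by 0.93 ± 0.378 in the authors' deposited table (adjusted p = 1.97e-11 and 0.0337). The other 8 fibrillar collagen genes, COL1A1, COL1A2 and COL3A1 among them, were not listed. Of 33 other collagen genes 4 were higher (12.1%) and 1 lower (3.03%). The microfibrillar COL6A3 rose by 1.81 ± 0.101, the cartilage collagen COL9A2 by 1.45 ± 0.246 and the basement membrane collagen COL4A1 by 1.33 ± 0.282, and COL18A1 fell by 0.40 ± 0.138 in the authors' deposited table.

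The enzymes that make and mature collagen had no common direction. Of 30 collagen processing genes 4 were higher and 5 lower, with a median of -0.21. The prolyl hydroxylase subunit P4HA1 fell by 0.34 ± 0.0846, the lysyl oxidase relative LOXL3 by 0.43 ± 0.105 and the lysyl hydroxylase PLOD3 by 0.35 ± 0.112 in the authors' deposited table. The procollagen protease gene ADAMTS14 rose by 1.04 ± 0.198 there (authors' deposited table). Of 24 fibroblast markers 4 were higher and 3 lower: S100A4 rose by 0.95 ± 0.0980 and MMP2 by 0.46 ± 0.138, besides COL6A3, and the intermediate filament gene VIM fell by 0.53 ± 0.0533 in the authors' deposited table. The protease gene FAP was also higher at 1.42 ± 0.588, and the matrix genes FBN1 at -1.78 ± 0.309 and FBLN1 at -0.28 ± 0.0700 were lower, in the authors' deposited table. The other 17 markers, among them PDGFRA, PDGFRB, DCN, LUM and THY1, were not listed. Whether other cells contributed to these values was not tested.

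TGM5 was the only listed transglutaminase of 9 family members, TGM1 and TGM2 included. Of the other 38 epidermal cornification genes 3 were higher and 1 lower. The junction protein gene JUP rose by 0.60 ± 0.135, the envelope protein gene EVPL by 0.43 ± 0.137 and the keratin gene KRT10 fell by 0.44 ± 0.107 in the authors' deposited table. FLG, which encodes filaggrin, stood at 1.98 ± 0.802 in the authors' deposited table. KRT5, KRT14, TP63 and IVL, which define keratinocytes, were not listed.

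Of the other 10 gamma-glutamyltransferase genes 2 were higher and 0 lower, a share near that of all genes tested. GGT1, which encodes the main gamma-glutamyltransferase, rose by 0.91 ± 0.123 and GGT7 by 0.46 ± 0.118 in the authors' deposited table (adjusted p = 1.54e-12 and 3.01e-04). Of the other 17 leukotriene genes 6 were higher and 1 lower, with a median of 0.91. LTA4H, which makes leukotriene B4, rose by 0.52 ± 0.0678, the 5-lipoxygenase activator ALOX5AP by 0.64 ± 0.110 and LTC4S, the leukotriene C4 synthase, by 1.37 ± 0.514 in the authors' deposited table. DPEP2, the dipeptidase that acts after GGT5 on leukotriene D4, stood at 2.21 ± 0.434, and the receptor gene LTB4R2 was lower at -0.40 ± 0.133, in the authors' deposited table. ALOX5 itself was not listed.

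The glutathione side of the GGT5 reaction was split. Of the other 25 glutathione genes 6 were higher and 8 lower, with a median of -0.22. The cystine importer gene SLC7A11 fell by 0.84 ± 0.0876, its partner SLC3A2 by 0.68 ± 0.0747 and the glutathione-degrading CHAC1 by 2.37 ± 0.337, while GSTK1 rose by 0.55 ± 0.0610 in the authors' deposited table.

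CYFIP2, chosen for its large rise, stood above every other listed subunit of the WAVE complex. Among the other 10 genes, 4 were higher and 3 lower, and the median of these 7 was 0.15. Its paralog CYFIP1 stood at 0.15 ± 0.0602 in the authors' deposited table (adjusted p = 0.0316). The blood-cell subunit NCKAP1L rose by 0.70 ± 0.0595, and its paralog NCKAP1, used in most other tissues, fell by 1.04 ± 0.114 in the authors' deposited table. ABI1 rose by 0.34 ± 0.0703, whereas ABI2 fell by 0.62 ± 0.0927 and WASF1 by 0.42 ± 0.0811 in the authors' deposited table. CYFIP proteins also bind the RNA-binding protein FMRP, whose gene FMR1 fell by 0.68 ± 0.0827 there (authors' deposited table). Of the 6 other genes of that partnership 2 were higher and 2 lower.

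PTCHD4 had the largest rise of the whole table, so no relative could match it. Of the other 11 patched-domain genes DISP2 rose by 0.88 ± 0.212 and the sterol sensor SCAP by 0.25 ± 0.0852 in the authors' deposited table. PTCH1, PTCHD1 and PTCHD3 were not listed. Of the other 24 hedgehog pathway genes 4 were higher and 2 lower. The acyltransferase gene HHAT rose by 1.62 ± 0.196, SCUBE1 by 1.73 ± 0.211 and the kinase gene STK36 by 0.78 ± 0.109, and the ciliary kinesin gene KIF7 fell by 2.23 ± 0.277 in the authors' deposited table. SMO, GLI1, GLI2 and GLI3 were not listed.

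**Figure D3:**
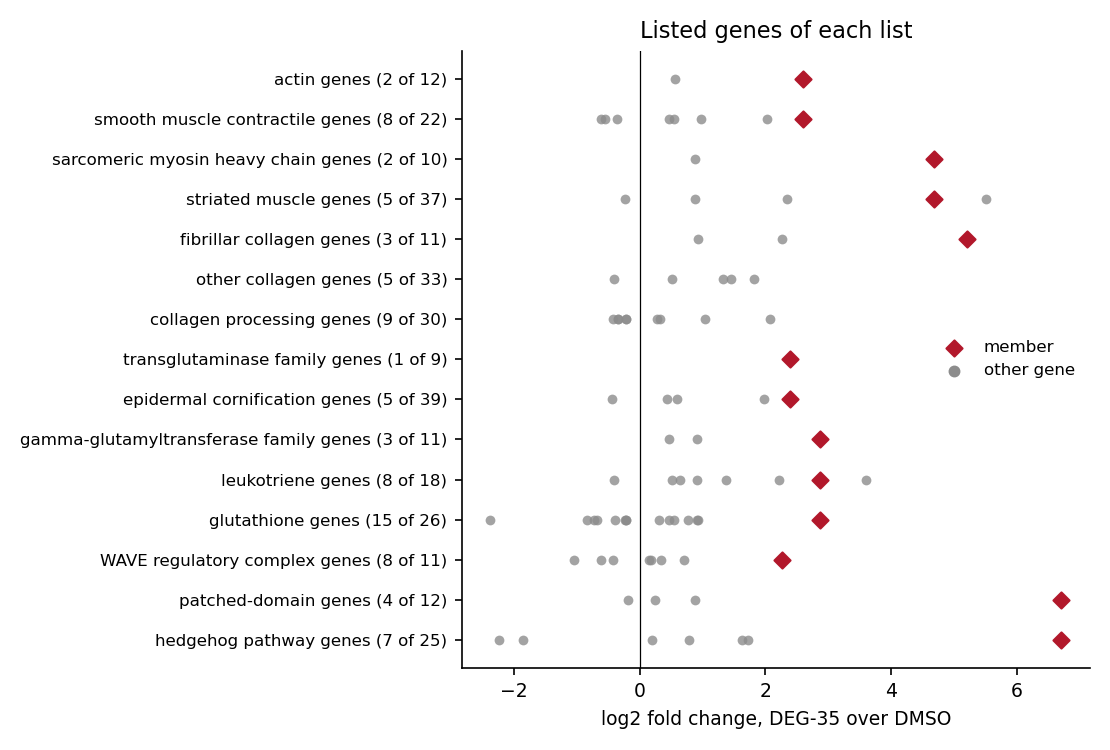
Log2 fold changes, DEG-35 over DMSO (x axis), of the listed genes of each gene list (rows; listed genes of all genes in brackets). Red diamonds are the 7 genes described and grey points the other listed genes; each diamond lies right of the other points in its row except in the striated muscle row, where MYBPHL stands at 5.50, and the leukotriene row, where CYP4F3 stands at 3.59. The 7 genes were chosen for their large rises, so this order is partly fixed by that choice.

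Of 12 p53 reference genes 11 were higher (91.7%), with a median of 1.54. ZMAT3 stood at 2.08 ± 0.0739, SESN1 at 2.07 ± 0.0679 and CDKN1A, the cell cycle inhibitor, at 1.91 ± 0.0579 in the authors' deposited table. These values lie below all 7 members, which were chosen for large rises. The intervals of ZMAT3 (1.94 to 2.23) and SESN1 (1.94 to 2.21) overlap that of CYFIP2 (2.12 to 2.42). TP53INP1, at 3.27 ± 0.118 in the authors' deposited table, lies between MYH13 and GGT5. Of 20 blood cell markers 12 were higher and 1 lower, and their median was 0.46. The integrin gene ITGAM rose by 1.47 ± 0.0956, LAPTM5 by 0.82 ± 0.0533 and CD68 by 0.76 ± 0.0700, and MPO fell by 0.36 ± 0.0965 in the authors' deposited table.

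Most of the neighbouring genes were not listed. The 2 nearest protein-coding genes on each side of the 7 members, in the order of GENCODE release 29, make 28 genes, of which 3 (10.7%) were higher and 6 (21.4%) lower. Of all genes tested, 21.4% were higher and 24.0% lower, but unlisted neighbours may not have been tested at all. SPECC1L and its readthrough are counted as separate genes. Those of PTCHD4 included MUT, a mitochondrial mutase gene, at -0.25 ± 0.0785 and the centromere gene CENPQ at -1.60 ± 0.109 in the authors' deposited table. COL5A1 lies beside WDR5, a chromatin adaptor gene at -0.57 ± 0.0623, and the nuclear receptor gene RXRA at -0.25 ± 0.0998 (authors' deposited table). Beside MYH13, GAS7 rose by 0.71 ± 0.0730, and beside TGM5, CCNDBP1 rose by 0.33 ± 0.0863 in the authors' deposited table. Those of GGT5 were SPECC1L, at -0.28 ± 0.0724, and its readthrough with ADORA2A, at -0.25 ± 0.0821, in the authors' deposited table. CYFIP2 had no listed flanking gene.

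At the ACTA2 locus 3 overlapping genes on the other strand changed. ACTA2-AS1, a noncoding RNA, rose by 2.62 ± 0.116, which differs from the 2.60 ± 0.0901 of ACTA2 by less than either error, in the authors' deposited table. FAS, the death receptor gene that starts beside the outer ACTA2 start in the opposite direction, rose by 0.79 ± 0.0861, and STAMBPL1, a deubiquitinase gene, fell by 0.62 ± 0.170 in the authors' deposited table. A FAS window of the RefSeq table and the outer ACTA2 promoter window share 193 of 300 bases. LIPA, a lysosomal lipase gene and the 1 listed flanking gene, rose by 0.50 ± 0.0653 in the authors' deposited table. Over all 7 members 13 annotated genes overlap, and the 3 at ACTA2 (23.1%) were the listed ones, against 45.3% of all genes tested. Here too the unlisted ones may not have been tested at all.

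**Figure D4:**
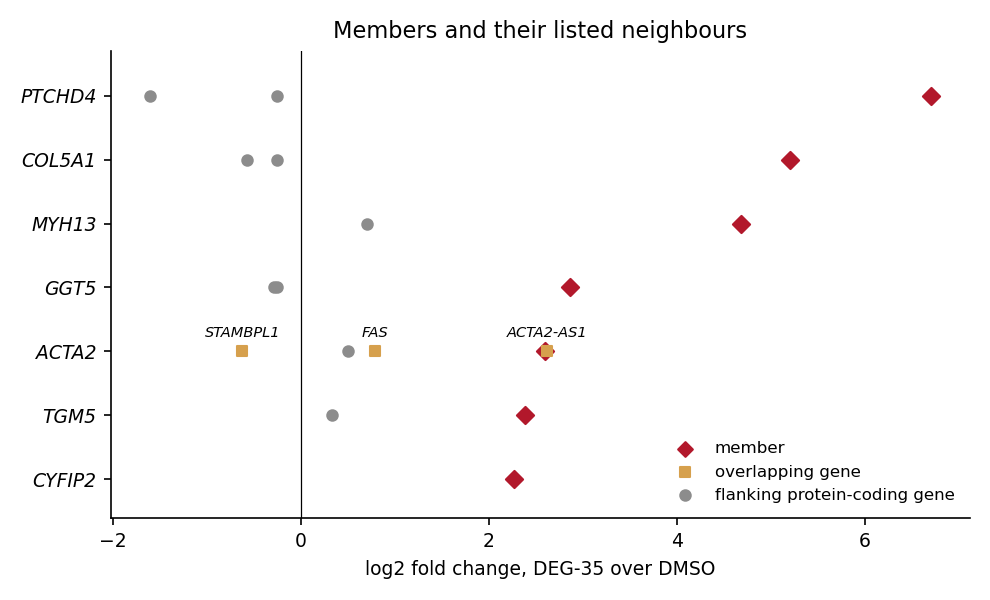
Log2 fold changes, DEG-35 over DMSO (x axis), of each gene described (red diamonds), of listed genes that overlap it (orange squares, named) and of listed protein-coding genes that flank it (grey circles). At ACTA2 the overlapping ACTA2-AS1 stands at 2.62 beside 2.60, and no flanking gene of any member lies above 0.71.

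How far reads could be shared with other genes was measured on the GENCODE release 29 transcripts, as the share of a gene's distinct 50-base stretches that another gene's transcripts also hold. Neither the annotation nor the read length of the libraries is stated in the labels. COL5A1 and TGM5 shared no stretch on either strand. ACTA2 shared 0.875% on its own strand, none of it with another actin gene, but 26.0% with genes on the opposite strand: ACTA2-AS1 holds 13.2% and FAS 11.1%. The labels do not say that reads were counted by strand, and without that ACTA2 and ACTA2-AS1 cannot be told apart over this sequence.

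MYH13 shared 8.86% on its own strand, all of it with 5 other sarcomeric myosin genes, led by MYH8 with 4.15%. GGT5 shared 2.72% on its own strand, mainly with the pseudogene BCRP3 (1.89%), and none with GGT1. CYFIP2 shared none on its own strand and 3.98% on the opposite one. PTCHD4 shared 4.66% on its own strand with 210 other genes and 4.27% on the opposite strand with 198. Many of these genes hold the same stretches: NECAP1 alone holds 3.04% on the same strand and FBXO48 alone 3.24% on the opposite one.

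**Figure D5:**
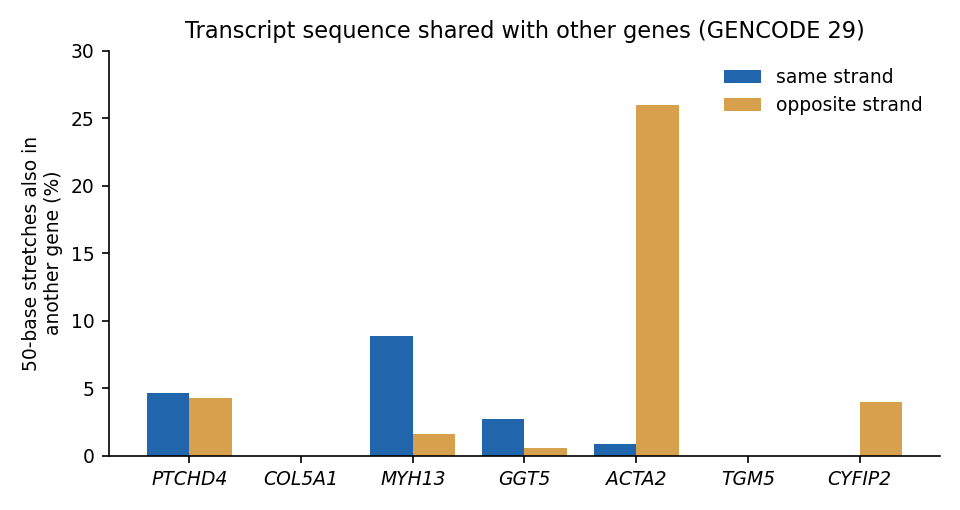
Percentage of each gene's distinct 50-base transcript stretches that occur in another GENCODE release 29 gene (y axis), on the same strand (blue bars) and on the opposite strand (orange bars). ACTA2 stands out with 26.0% on the opposite strand, MYH13 has 8.86% on its own strand, and COL5A1 and TGM5 have none.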

How the data were processed

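RNA-seq libraries were made from MOLM-13 cells after 24 h with 50 nM DEG-35 (3 libraries) or DMSO (3 libraries), per the labels. The submitters' processing notes name hg19, STAR, featureCounts and DESeq2, without versions or options. The authors deposited 1 table of 6831 genes whose columns, per the file headers, are log2FoldChange, the p-value and its adjusted form. Its largest adjusted p lies just below 0.05. For the 2789 genes with a p above 1e-04, adjusted p times rank over p lay within 0.1% of 15064, taken as the number of genes tested. No new test of single genes was possible, and calls rest on the deposited adjusted p-values. The implied SE is the absolute log2 fold change over the normal quantile of the two-sided p, and assumes a Wald test. It cannot be computed for the 3 genes with a p of 0.

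The genes described and the 23 gene lists around them (407 genes) were chosen with earlier results of these data known. Named genes are the 7 members, up to 3 listed genes with the smallest adjusted p in each list's majority direction and the leading one against it, listed paralogs, listed neighbours, and the genes nearest in fold change. Outside this rule, chosen after their values were seen, are unlisted genes given by name and ABI2, ALOX5AP, CYP4F3, DPEP2, FAP, FBLN1, FBN1, FLG, GSTK1, HIST1H2BK, KCNMB1, LINC01021, LTC4S, SMTN, TAGLN, TP53INP1, TPM1 and WASF1. Some results on single genes are not reported here. Symbols were matched through RefSeq synonyms. Promoters come from RefSeq (GRCh38.p14), neighbours and transcripts from GENCODE release 29, used for order, strand and sequence only. The computation of the implied SE and of the number of genes tested was checked on simulated Wald statistics. That check shares the assumption of a Wald test and cannot examine it. The other steps were not simulated. Scripts ran in Python 3.11.15 with SciPy 1.17.1, NumPy 2.4.6 and pandas 2.3.3, and Matplotlib 3.10.9 drew the figures.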

Additional observations from a re-analysis of the deposited data

How the results depend on the processing

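All 7 genes passed as higher at an adjusted p of 0.01, with a limit of 1 on the absolute log2 fold change, and with Bonferroni adjustment over 15064 tests. Their log2 fold changes also stayed positive when shifted by 0.3 either way. With an implied SE of at most 0.2, 4 remained: GGT5, ACTA2, TGM5 and CYFIP2. With a fold change limit of 1 the table held 637 higher and 614 lower genes, and the lists without the members 30 and 8 in place of 84 and 44. Bonferroni adjustment left 1347 and 1807 in the table and 52 and 18 in the lists. These settings are stricter by construction. By sign alone, shifts of 0.3 down or up gave 69 positive and 59 negative values, or 98 and 30, among the listed genes of the lists. With at most 1 mismatch, 9 of the 11 promoter windows held a p53 half-site, 2 a CArG box and 5 TATAAA. With stretches of 100 bases, chosen after the data were seen, ACTA2 shared 19.2% on the opposite strand and MYH13 3.86% on its own. No paired analysis was possible because the table holds no per-library values, and for the same reason no replicate could be left out. Depth is unknown.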

Other observations

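Lists further from the 7 genes were counted in the same way. Of 22 genes of RAC signalling and Arp2/3 actin assembly, downstream of the WAVE complex, 7 were higher and 7 lower, with a median of -0.01 on the log2 scale. The blood-cell GTPase gene RAC2 rose by 0.57 ± 0.0724 and the Arp2/3 subunit ARPC1A fell by 0.61 ± 0.0752 in the authors' deposited table. Among 25 TGF-beta response genes, a pathway known to induce ACTA2 and collagens in fibroblasts, 5 were higher and 4 lower, with a median of 0.28. The signal transducer gene SMAD3 rose by 0.55 ± 0.102 and the inhibitory SMAD6 fell by 1.02 ± 0.195 in the authors' deposited table, and TGFBI and SMAD7 were not listed. Among 15 endothelial markers PECAM1 was higher, at 0.38 ± 0.102, and FLT1 lower, at -1.55 ± 0.204, in the authors' deposited table.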
